A study of Homo sapiens with 10 samples.

Results

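The H3K9me3 regions described here lie within 5 Mb of the ends of chromosomes 1 to 22. They were taken from 1 merged list of regions called after ERH knockdown. At the p end a region belonged if it started below 5 Mb, and at the q end if it ended within 5 Mb of the highest region end on its chromosome. Rows numbered as later pieces of a split region were left out. This gave 991 regions, of 10361 on these chromosomes and 10536 rows in the whole list, with 373 at p ends and 618 at q ends. The choice used position only, and no score or length.

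The cells were BJ, 1 human foreskin fibroblast line, given 5 nM siRNA against ERH in 2 transfections 3 days apart, without reprogramming factors. CUT&RUN, in which an antibody directs micrococcal nuclease to chromatin and the released DNA is sequenced, was done for H3K9me3 on 3 such samples, and the list pools them. The series also holds 3 H3K9me3 samples given non-targeting siRNA and SOX2 samples collected 48 hours after infection with Sendai viruses for OCT4, SOX2, KLF4 and c-MYC (2 with non-targeting and 2 with ERH siRNA). Values of these groups were not analysed here. The purpose stated by the title is how the heterochromatin protein ERH represses other cell fates. A region in the list therefore shows where H3K9me3 was called in knockdown cells, and nothing about control cells. Read counts are not part of the list, and the depth is unknown. No value has a replicate error, and no difference below was tested, because regions, genes and chromosome ends are not replicates. Knockdown of ERH itself could not be checked in a list of chromatin regions.

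H3K9me3 is the trimethylation of lysine 9 of histone H3. It is laid down by enzymes such as SETDB1 and SUV39H and bound by HP1 proteins, and it marks constitutive heterochromatin and silenced repeats. Human chromosome ends carry telomeric repeats and, next to them, patchworks of duplicated sequence with members of the same gene families on many chromosomes. Several clusters of C2H2 zinc finger genes, most of which encode DNA-binding repressors of transposable elements, also lie close to chromosome ends. Zinc finger gene bodies are known to carry H3K9me3, placed with the help of ZNF274 and SETDB1.

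Few gene starts lay inside the regions, and the sequences of those that did show how different they were. Promoters were taken from RefSeq, GRCh38.p14, as 300 bases from 250 before a start to 50 after it. The table holds 4307 promoters of all gene types near ends and is not complete. Of these, 16 lay wholly inside a region, or 0.371% (Wilson 95% interval 0.229 to 0.603%), against 0.252% of all autosomal promoters in the table. The 6 promoters below belong to genes at the strongest domains or to gene families described further on, and CG dinucleotides are in capitals.

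ZNF595, chr4:53071-53370, plus strand: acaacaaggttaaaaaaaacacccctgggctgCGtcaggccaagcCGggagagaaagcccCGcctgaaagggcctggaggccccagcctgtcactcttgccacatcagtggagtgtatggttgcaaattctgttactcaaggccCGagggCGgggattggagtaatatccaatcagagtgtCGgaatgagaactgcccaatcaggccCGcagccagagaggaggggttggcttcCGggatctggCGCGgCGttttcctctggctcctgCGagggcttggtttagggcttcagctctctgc

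LINC01262, chr4:189659356-189659655, plus strand: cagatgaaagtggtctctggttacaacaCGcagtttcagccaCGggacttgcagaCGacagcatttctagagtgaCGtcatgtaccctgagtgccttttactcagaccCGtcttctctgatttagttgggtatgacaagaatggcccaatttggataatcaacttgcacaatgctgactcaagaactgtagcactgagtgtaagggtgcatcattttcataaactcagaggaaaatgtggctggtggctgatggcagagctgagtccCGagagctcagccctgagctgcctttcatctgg

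FRG1, chr4:189940622-189940921, plus strand: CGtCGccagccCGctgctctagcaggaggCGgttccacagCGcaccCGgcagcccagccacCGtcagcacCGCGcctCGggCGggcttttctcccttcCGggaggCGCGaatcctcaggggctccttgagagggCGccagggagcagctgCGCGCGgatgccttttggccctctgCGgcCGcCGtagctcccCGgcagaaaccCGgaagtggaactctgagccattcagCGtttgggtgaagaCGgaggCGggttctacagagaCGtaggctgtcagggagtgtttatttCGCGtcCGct

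ZSCAN18, chr19:58118355-58118654, minus strand: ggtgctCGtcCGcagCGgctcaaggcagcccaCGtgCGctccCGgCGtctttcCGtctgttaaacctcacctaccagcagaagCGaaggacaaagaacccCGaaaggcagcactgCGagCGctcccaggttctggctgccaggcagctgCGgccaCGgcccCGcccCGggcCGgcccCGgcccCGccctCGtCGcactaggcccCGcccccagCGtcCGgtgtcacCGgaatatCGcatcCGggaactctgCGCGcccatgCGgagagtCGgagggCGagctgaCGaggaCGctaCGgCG

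KRTAP10-5, chr21:44580555-44580854, minus strand: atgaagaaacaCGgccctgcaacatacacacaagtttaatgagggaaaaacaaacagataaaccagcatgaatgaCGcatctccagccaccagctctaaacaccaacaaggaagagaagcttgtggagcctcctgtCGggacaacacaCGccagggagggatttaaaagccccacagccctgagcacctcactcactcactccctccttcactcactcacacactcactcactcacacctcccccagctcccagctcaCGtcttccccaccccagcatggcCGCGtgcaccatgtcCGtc

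OR2L2, chr1:248029820-248030119, plus strand: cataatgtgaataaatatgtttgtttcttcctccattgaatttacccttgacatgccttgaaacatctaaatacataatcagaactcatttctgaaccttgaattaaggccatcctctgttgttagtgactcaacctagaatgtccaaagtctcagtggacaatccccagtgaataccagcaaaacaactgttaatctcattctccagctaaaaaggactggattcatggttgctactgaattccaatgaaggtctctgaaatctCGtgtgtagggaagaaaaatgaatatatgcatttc

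The CG count fell into a wide range among these promoters. ZSCAN18, a zinc finger gene, had 36 CG dinucleotides in its 300 bases and FRG1 had 30. ZNF595 had 12, KRTAP10-5 had 8 and the long noncoding RNA LINC01262 had 6. The olfactory receptor gene OR2L2 had 1. Over all 16 promoters inside a region near ends the median was 8 CG dinucleotides and 52.7% G plus C. Promoters near ends that touched no region had medians of 19 and 64.7%. The FRG1 promoter overlaps that of its divergent transcript FRG1-DT, so these count as 2 of the 16. The telomeric repeat unit TTAGGG, searched on both strands, was found in 2 of the 16 promoters (12.5%) and in 7.59% of all promoters near ends. A match in these letters is a description of the window and not of a binding site.

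Regions near ends were more frequent than in the rest of the chromosomes. They covered 5.12 Mb of 195 Mb in the 39 end windows that held a region, or 2.62% of the bases. The 5 windows without a region, of 44 in all, were left out, whereas empty stretches elsewhere were kept. Counting those 5 would lower the share, the density and their ratios to the rest, and this was not computed. The rest of the autosomes was covered over 1.66%, so the end windows had a covered share 1.58 times as high. The density was 5.08 regions per Mb in the end windows and 3.54 per Mb elsewhere, a ratio of 1.44. The ratio of the covered shares was 1.43 without chromosome 4, and 1.36 without all regions that overlap a zinc finger gene, at the ends and elsewhere.

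The regions near ends were slightly longer than the others and close to them in score for their length. A typical region near an end was 3663 bp long (the median, with a 95% interval from binomial ranks of 3559 to 3811 bp). Elsewhere the median was 3511.5 bp (3474 to 3546 bp). The shortest was 488 bp and the longest 83079 bp. Regions of at least 10 kb made up 7.37% of those near ends (73 regions, Wilson 95% interval 5.90 to 9.16%), and 4.82% of those elsewhere (4.41 to 5.28%). The intervals overlapped neither for the median length nor for this share. The authors give each region a score without a unit. Divided by length, it had a median of 6.86 per bp near ends and 6.97 per bp elsewhere, and these 95% intervals overlapped (6.68 to 7.05 and 6.92 to 7.03). These intervals treat regions as independent draws and cover sampling within this list only.

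At the limit of the choice the regions were ordinary. The last 2 inside it at p ends, on chromosomes 4 and 6, started 4960 and 4976 kb from the end and were 5328 and 4919 bp long. The first 2 outside, on chromosomes 9 and 6, started at 5017 and 5050 kb and were 2352 and 2660 bp long. At q ends the last inside, on chromosomes 10 and 19, lay 4985 and 4991 kb from the end, with lengths of 8010 and 2256 bp. The first outside, on chromosomes 6 and 8, lay 5005 and 5008 kb away, with lengths of 8504 and 1837 bp.

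The ends differed widely among themselves. The covered share of single p end windows ran from 0.36% to 6.38% with a median of 1.95%, and that of q end windows from 0.97% to 7.02% with a median of 2.46%. The highest share was 7.02% at 4q in 35 regions, followed by 6.90% at 19q in 41 regions and 6.38% at 4p in 32 regions. Next came 10q with 5.10% in 38 regions and 12q with 4.91% in 37. These 5 ends held 29.6% of all covered bases in the end windows. The 3 lowest shares were 0.36% at 17p in 6 regions, 0.75% at 9p in 11 regions and 0.97% at 17q in 16 regions. No region was called in the first 5 Mb of chromosomes 13, 14, 15, 21 and 22. These are the acrocentric chromosomes, and the gene table places no protein-coding gene in those stretches either. Whether reads could be placed in these stretches was not examined. The lack of a region therefore does not show that H3K9me3 was absent there.

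**Figure D1:**
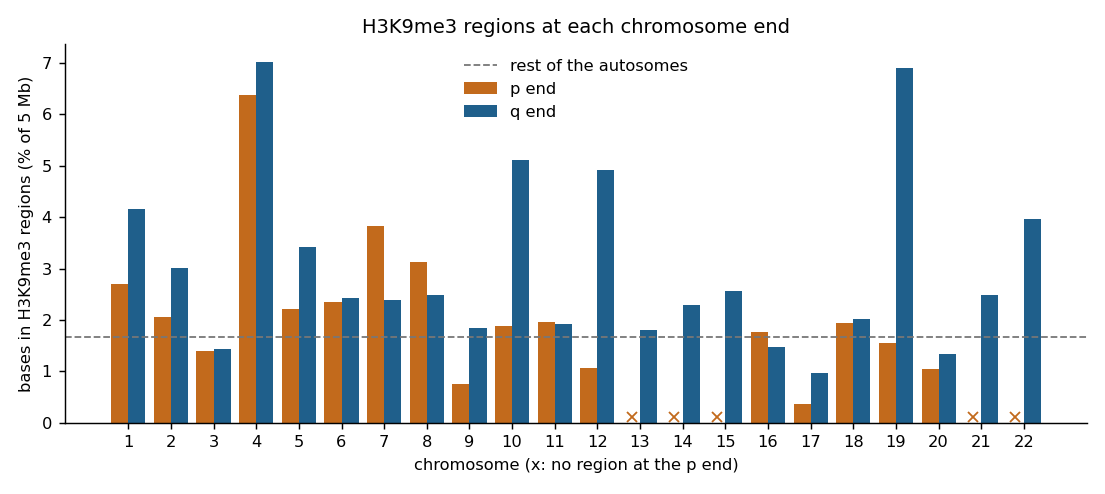
Percentage of bases in H3K9me3 regions in the 5 Mb at the p end (orange) and the q end (blue) of each autosome, with crosses for p ends that hold no region and a dashed line at 1.66% for the rest of the autosomes. Both ends of chromosome 4 and the q end of chromosome 19 stand above 6%.

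The q ends were covered more than the p ends. Over all windows with a region the shares were 3.0% at q ends (22 windows) and 2.14% at p ends (17 windows), a ratio of 1.40. Of the 17 chromosomes with regions at both ends, 13 had the higher share at q and 4 at p, and the median ratio of q to p was 1.26. The ratio was 4.58 on chromosome 12, 4.45 on chromosome 19 and 2.71 on chromosomes 10 and 17. It was below 1 on chromosome 7 (0.62), chromosome 8 (0.79), chromosome 16 (0.83) and chromosome 11 (0.98). The windows were not set alike, since a q window starts at a region by definition whereas a p window starts at the first base. With p windows started at the lowest region instead, the ratio was 1.28. It was 1.45 without the q ends of the acrocentric chromosomes.

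By distance, q ends had the higher share in every bin of the outer 2 Mb. In bins of 0.5 Mb, the outermost bin of q ends was covered over 7.47% (110 regions), the next over 3.52% and the bin from 4.5 to 5 Mb over 1.84%. At p ends the outermost bin was covered over 3.96% (33 regions) and the next over 1.19%, with no steady fall to 5 Mb. The share at p ends rested on chromosome 4, without which that bin had 1.16%, whereas the share at q ends was 5.87% without chromosome 4 and at 4.86% without chromosomes 4 and 19. Of the 22 q ends, 14 were covered more in the outermost 0.5 Mb than in the other 4.5 Mb, and 6 of the 17 p ends were. The outermost q bin holds a region by definition and the outermost p bin need not, so these counts are not set alike. The p ends of chromosomes 1, 6, 9 and 16 had no region in the outermost 0.5 Mb, and on 9p the first region began 1902 kb from the end. Counted from the highest region or gene end instead, the outermost q bin was covered over 5.43% and the next over 4.13%. With p ends counted from the lowest region start, the outermost p bin was covered over 4.85% and the next over 1.23%.

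**Figure D2:**
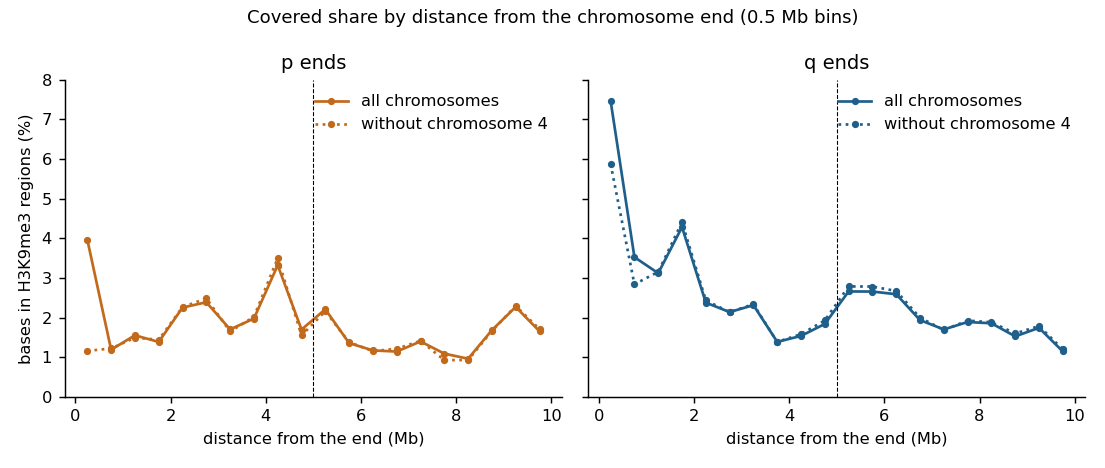
Percentage of bases in H3K9me3 regions in 0.5 Mb bins against the distance from the chromosome end in Mb, for 17 p ends (left) and 22 q ends (right), with all chromosomes (solid) and without chromosome 4 (dotted). The dashed line marks the 5 Mb limit, and the outermost q bin stands at 7.47% with chromosome 4 and 5.87% without it.

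The outermost 0.5 Mb of 4 ends was densely covered. It was covered over 48.9% at 4p, 40.9% at 4q, 27.7% at 12q and 26.2% at 19q. The next was 8q with 11.8%, and the remaining 34 ends had between 0% and 7.77%. The 4 dense ends were of different makeup, since 3 of them hold zinc finger genes there and 4q does not.

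At 4p the regions followed a cluster of 5 zinc finger genes, all of which overlapped a region. ZNF595 was covered over 94.8% of its 34.9 kb, by regions at 35440 to 72205 and 74018 to 101672. ZNF141 was covered over 55.5%, ZNF718 over 46.7%, ZNF721 over 41.1% and ZNF732 over 34.1% of their lengths. The region at 400991 to 464317, 63.3 kb long, overlapped ZNF721 and the pseudogene ABCA11P. Next to it the region at 358749 to 395512 overlapped ZNF141, and the pair spanned 106 kb, covered over 94.8%. The p-end region nearest to any end was here too, at 27144 to 30717, 27.1 kb from the first base and outside any annotated gene.

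The densest domain at 4q held no protein-coding gene. It ran from 189522054 to 189763505 as 8 regions at most 10 kb apart, spanned 241 kb and was covered over 94.6%. Its longest regions, at 189652229 to 189735307 (83079 bp) and 189547982 to 189615252 (67271 bp), were also the longest near any chromosome end. They overlapped the long noncoding RNA genes LINC01262, LOC105377616 and LOC105377615 and the pseudogene RNU1-51P. The score per base pair in the 8 regions ran from 4.55 to 11.6 with a median of 11.1. Toward the telomere, 5 regions covered 22.6% of FRG1-DT, and 2 covered 5.34% of FRG1, which encodes an actin-bundling and RNA-associated protein. One of these, at 189937149 to 189941023, holds the FRG1 promoter printed above. The last region of 4q was at 190106128 to 190112288 and overlapped the long noncoding RNA gene LOC107986338.

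Smaller chains were seen at other ends as well. Of the 991 regions, 226 (22.8%) lay at most 10 kb from another, in 98 chains of at least 2 regions. The matching share for regions elsewhere was not computed, so chains are not shown to be particular to the ends. On 8p a chain of 6 regions from 2250437 to 2337756 covered 67.7 kb and overlapped no protein-coding gene. On 14q a chain of 3 regions from 105909901 to 105945192 covered 26.2 kb, again without a protein-coding gene. On 7p a chain of 3 regions from 4164685 to 4215793 covered 40.5 kb inside SDK1.

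Near ends, 137 C2H2 zinc finger genes were counted, defined by symbol, and 66 overlapped a region by at least 1 bp. This is 48.2% (Wilson 95% interval 40.0 to 56.5%), against 54.6% of the 544 such genes on all autosomes and 56.8% (51.9 to 61.5%) of the 407 away from the ends. The bodies were covered over 19.9% near ends and 11.7% elsewhere. Among overlapping genes the median covered share was 41.8% near ends and 24.2% elsewhere. The share of genes that overlapped was thus lower near ends, but its interval overlapped that elsewhere. Without chromosome 19 it was 53.2% near ends (41.0 to 65.1%), and the value elsewhere without it was not computed. Neighbouring genes can share a region, whereas the intervals treat genes as independent. The covered share summed over all bodies was higher near ends. Single genes varied widely, and 71 of the 137 near ends had no covered base. Some of these, such as ZNF672 and ZNF692 at 1q, lie past the last region of their end and cannot overlap one. How reads that match several similar copies were assigned is not given in the sources used here, and its part in the values of zinc finger and other duplicated genes was not tested.

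Overlap differed between the clusters. At 12q, 7 of 7 zinc finger genes overlapped a region, among them ZNF891 (81.0% covered), ZNF84 (69.0%) and ZNF268 (66.0%). At 4p and at 19p, 5 of 5 did. At 5q, 6 of 8 did, with ZNF354C covered over 74.7% by a region at 179066355 to 179087591 and ZNF879 over 73.8% by a region at 179026724 to 179035030. At 19q, the largest cluster, 28 of 70 did, with ZNF470 covered over 68.1% and ZSCAN18 over 61.6%. ZNF274, which encodes a factor that brings SETDB1 to zinc finger genes, lies in that cluster and was itself covered over 58.9%. The counts were 4 of 11 at 16p, 4 of 10 at 8q and 3 of 7 at 1q. In all, 18 ends held a zinc finger gene and 11 of them an overlapping one.

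Regions lay toward the 3′ end of zinc finger genes, where the exon for the zinc fingers usually is. Strand was taken from the promoter table and was known for 54 of the 66 overlapping genes, all at least 5 kb long. In the first part of the gene body, when it was cut into 3 equal parts from 5′ to 3′, 14.8% of bases lay in regions. In the middle part the share was 46.3% and in the last part 55.9%. The last part was covered more than the first in 45 of the 54 genes, less in 6 and equally in 3. The 200 overlapping zinc finger genes away from the ends had 7.49%, 18.1% and 39.9%. In the 156 other overlapping protein-coding genes near ends the shares were 3.24%, 3.84% and 4.95%.

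**Figure D3:**
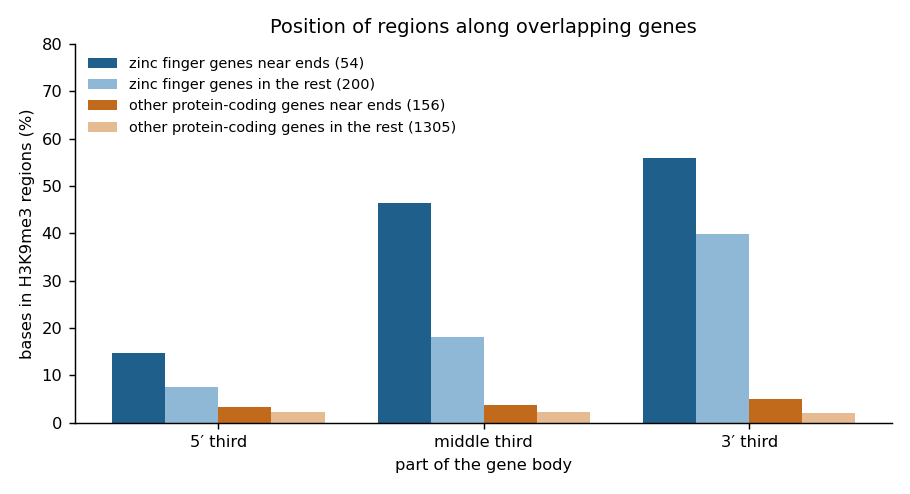
Percentage of bases in H3K9me3 regions in the 5′, middle and 3′ parts of the gene body, over overlapping genes of at least 5 kb with known strand, for zinc finger genes near ends (54) and elsewhere (200) and other protein-coding genes near ends (156) and elsewhere (1305). For zinc finger genes near ends the bars rise from 14.8% to 55.9%, and for other genes near ends they stay below 5%.

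Over all protein-coding genes near ends, 264 of 2455 overlapped a region, or 10.8% (Wilson 95% interval 9.59 to 12.04%), close to the 11% of all autosomal protein-coding genes. Of the 2455, 203 reached beyond the outermost region of their end, and any part beyond it cannot overlap a region. This lowers the shares near ends, and shares without these genes were not computed. Without zinc finger genes it was 198 of 2318, or 8.54% (7.47 to 9.75%), against 9.67% of all such autosomal genes. Genes near ends were shorter, with a median length of 16.1 kb against 26.6 kb elsewhere, and an overlap counted once whatever the length. Per base the order was the other way, and the bodies of protein-coding genes other than zinc finger genes were covered over 1.52% near ends and 0.86% elsewhere. Of the region bases near ends, 14.1% lay in zinc finger genes, 28.8% in other protein-coding genes, 12.6% in other annotated genes only and 44.5% in no gene. For regions elsewhere these shares were 4.67%, 21.4%, 15.6% and 58.3%. The end windows are themselves richer in genes, with 51.6% of their bases in protein-coding genes against 41.8% elsewhere.

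The number of protein-coding genes at an end went only weakly with its covered share. Across the 39 ends, which share the list and differ in repeat and gene content, Spearman's rho was -0.07 and Pearson's r 0.04. Without the 2 ends farthest from the median gene number these were -0.11 and -0.17. Against the covered length outside zinc finger genes, Spearman's rho was -0.26. These coefficients are descriptions, and ends of the same genome are not independent samples.

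Near chromosome ends, no subtelomeric duplicated family searched except FRG1 overlapped a region, but most members reached beyond the outermost region of their end. The search took the WASH, DDX11L, FAM138, TUBB8, FRG1, FRG2, DUX4, CICP, RPL23A pseudogene, MIR1302, IL9R, RABL2 and OR4F families. Members were matched by the start of the symbol only, so FRG1-DT counts as a member. Many members lie away from chromosome ends, and whether each is a duplicate of subtelomeric sequence was not examined. Of the 115 members near ends, 2 overlapped a region (1.74%, Wilson 95% interval 0.48 to 6.12%), beside 12 of 269 members on all autosomes (4.46%), and both were FRG1 and its divergent transcript at 4q. None of the 24 genes and pseudogenes named DUX4 did, and none of the 17 of the OR4F olfactory receptor family. Of the 115, 79 reached beyond the outermost region of their end, and any part beyond it cannot overlap a region by definition. The share without these 79 was not computed, so the values do not show that these families are free of H3K9me3.

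Olfactory receptor genes, which encode odorant receptors, overlapped in 3 of 90 cases near ends (3.33%, Wilson 95% interval 1.14 to 9.35%), near the 2.33% of all autosomal ones (9 of 386). All 3 were at 1q. OR2L5 was covered over 32.2% and OR2L2 over 9.11% by the same region, at 248020862 to 248031184, and OR2L13, whose annotated span includes both, over 10.5% by this and 1 more region. Of 22 keratin-associated protein genes near ends, which encode hair shaft proteins, 2 overlapped (9.09%), both on 21q, beside 6 of 94 on all autosomes (6.38%). KRTAP10-5 was covered over 81.0% by a region at 44579673 to 44582805, and KRTAP10-11 over 5.34%. These genes lie close together and resemble each other.

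In 4 small groups no gene overlapped a region, where 11% of all autosomal protein-coding genes did. None of the 13 ribosomal protein genes near ends overlapped a region, which allows a share of up to 23.1%. None of 17 developmental regulators near ends did, which allows up to 17.6%, among them FOXC1, FOXC2, IRX1, EN2, SHH and DMRT1. The 5 genes of the alpha globin cluster on 16p (HBZ, HBM, HBA2, HBA1 and HBQ1) and the 4 secreted mucin genes of 11p15 (MUC6, MUC2, MUC5AC and MUC5B) had none. For these the limits are 60% and 75%. All 4 limits lie above the 11% of all genes, so at these numbers a lower share was not detectable, and they cover counting error only. Median lengths were 5.66, 6.03, 0.835 and 37.4 kb in the order given, against 24.8 kb for all autosomal protein-coding genes. Regions at 1133617 to 1136018 and 1141543 to 1144803 lay between MUC2 and MUC5AC, and 1 at 1209751 to 1215717 between MUC5AC and MUC5B.

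In the imprinted domain of 11p15, where genes are expressed from 1 parental copy, 2 of the 9 listed genes overlapped a region (22.2%, beside 11% of all autosomal protein-coding genes), KCNQ1 and its antisense transcript. The 9 include the noncoding genes H19 and KCNQ1OT1, so the 11% is not a matched share. KCNQ1OT1 lies within KCNQ1, so the 2 are not separate cases, and all autosomal protein-coding genes had a median length of only 24.8 kb. KCNQ1, a potassium channel gene, was covered over 9.92% of its 404 kb by 8 regions. The noncoding RNA KCNQ1OT1, which silences neighbouring genes on the paternal copy, was covered over 25.9% of its 91.7 kb by 3 of them. The longest of these, at 2636990 to 2652670, was 15681 bp long. H19, IGF2, INS, ASCL2, CDKN1C, PHLDA2 and NAP1L4 overlapped none, but 2 regions, at 2082873 to 2085142 and 2115938 to 2119032, lay between H19 and IGF2. A region has no strand, so those shared by KCNQ1 and KCNQ1OT1 cannot be told apart.

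Of 17 long neuronal adhesion and signalling genes near ends, 12 overlapped a region (70.6%, beside 11% of all autosomal protein-coding genes). Their median length was 576 kb, against 16.1 kb for all protein-coding genes near ends, and their bodies were covered over 1.88%. SDK1, described further on, is not on this list. The largest shares were those of CACNA1B, a calcium channel gene at 9q (7.44%, 3 regions), and PTPRN2, a gene of secretory granules at 7q (7.34%, 12 regions). DLGAP2, a postsynaptic scaffold gene, was covered over 2.48% and CSMD1 over 1.67% (10 regions). The neural adhesion genes CNTN4 and CNTN6, and IGSF9B, RBFOX3 and SHANK3, had none.

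Other protein-coding genes with many covered bases were long. SDK1, an adhesion gene at 7p, had 124 kb in 20 regions (12.8% of its length), the most of any gene near an end. TCERG1L at 10q had 60.9 kb in 8 regions (27.8%), TTC34 at 1p 37.4 kb in 5 regions (22.7%), ADAMTS17 at 15q 35.7 kb in 6 regions and TMEM132D at 12q 35.3 kb in 7 regions. By share of the body, the leading genes outside the lists were CCDC166 (69.5%), C19orf18 (53.0%), GRM6 (48.8%), ZNF470-DT (43.9%) and PRSS22 (43.8%). C19orf18, GRM6 and ZNF470-DT stand inside or beside zinc finger clusters, and the region over GRM6, at 178957428 to 178986625, also overlapped ZNF454. TERT, the catalytic subunit of telomerase, lies 1253 kb from the end of 5p. It was covered over 10.7% of its 41.9 kb by 1 region, at 1260487 to 1264952, which does not reach its start at the other side of the gene.

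**Figure D4:**
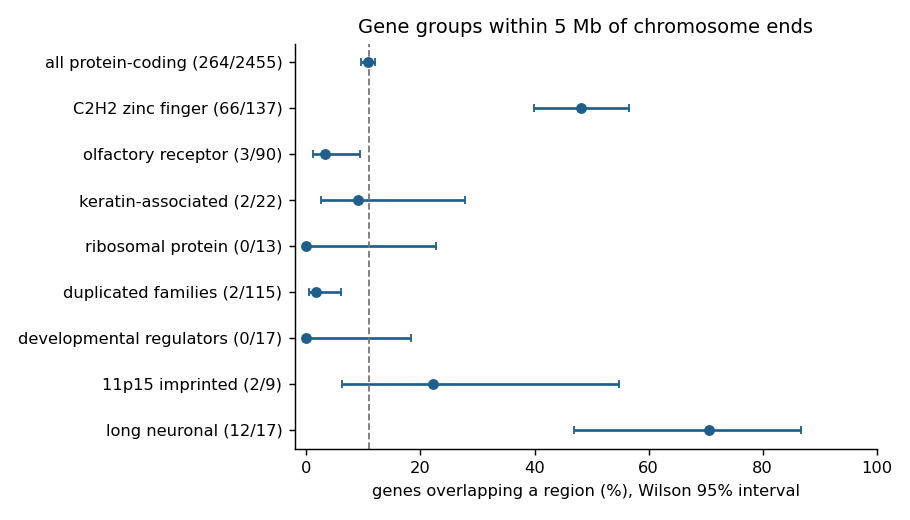
Percentage of genes within 5 Mb of chromosome ends that overlap a region, by gene group, with Wilson 95% intervals and the counts in brackets. The dashed line marks the 11% of all autosomal protein-coding genes, and zinc finger genes stand at 48.2% and the duplicated families at 1.74%. These families include pseudogenes, had a median length of 1.47 kb, and 79 of their 115 members reached beyond the outermost region of their end.

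Long regions fell into 2 ranges of score density, and those on zinc finger genes, as defined by symbol, were all above 7. Of the 73 regions of at least 10 kb near ends, 24 had a score per base pair under 6, 2 lay between 6 and 8, and 47 were above 8. All 32 that overlapped a zinc finger gene were above 7, from 7.16 to 12.9 with a median of 10.25 and a median length of 18.96 kb. Of the 15 that overlapped only other protein-coding genes, 10 were at most 7, and the median was 5.34. Of the 26 that overlapped no protein-coding gene, 15 were at most 7 and the median was 5.62. Of the 6 of these on 4q, 5 were above 7. The division at 7 was chosen after the values were seen. Away from the ends, the long regions on other protein-coding genes had a median of 8.31 and those on none 8.66, so this division was less clear there, with 25 of 37 and 230 of 322 above 7.

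**Figure D5:**
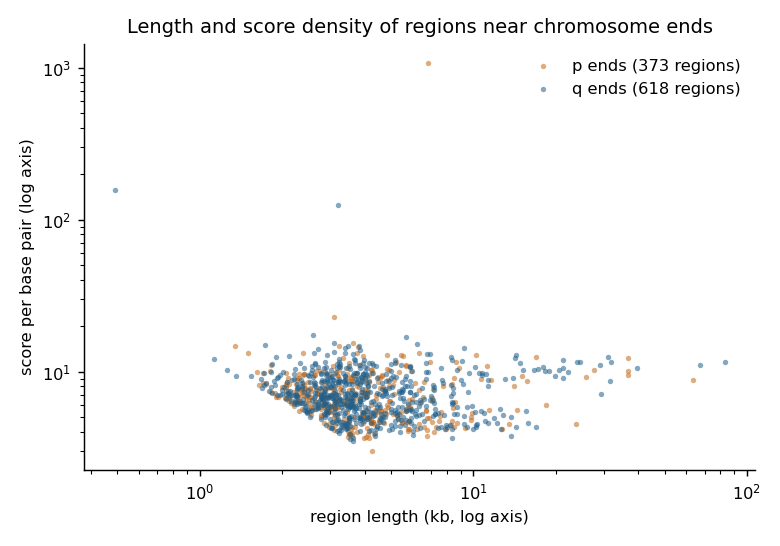
Score per base pair against length in kb for the 991 regions near chromosome ends, both on log axes, with p ends in orange and q ends in blue. Above 10 kb the points form an upper band near 10 and a lower band near 5, and 1 region at a p end stands at 1066.

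A few regions had far higher scores for their length. Only 4 of 991 (0.40%) exceeded 20 score units per base pair, against 110 of 9370 (1.17%) elsewhere. The highest was at 18p, at 105687 to 112518, with 1066 per bp over 6832 bp, on the pseudogene ROCK1P1 and the miRNA gene MIR8078. The others were at 3q in SENP5, at 196898480 to 196898967 (156 per bp), at the last region of 10q, 133761753 to 133764962, in no annotated gene (124 per bp), and at 1p, 788749 to 791846, on LINC01409 (23.01 per bp).

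Of 295 miRNA genes near ends, 2 lay in a region, and their mature sequences from RefSeq (GRCh38.p14) are shown because 1 of them marks the region with the highest score density. The seed, bases 2 to 8 from the 5′ end, is in capitals.

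hsa-miR-8078, chr18:112266-112288, minus strand: gGUCUAGGcccggugagagacuc

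hsa-miR-4535, chr22:48780331-48780347, plus strand: gUGGACCUggcugggac

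The seeds of these miRNAs differ. MIR4535 lay in a region of 22q at 48775011 to 48785683, and MIR8078 in the 18p region described above. The share of miRNA genes in a region was 0.68% near ends (Wilson 95% interval 0.19 to 2.44%) and 0.73% elsewhere (0.41 to 1.31%), so no difference was detectable with these counts.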

How the data were processed

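CUT&RUN for H3K9me3 in BJ fibroblasts after ERH siRNA gave 1 deposited list for 3 samples. Per the submitters' processing notes, Bowtie2 2.3.4.1, SAMtools 1.16.1, R 3.6.3, deepTools 3.5.0, bedtools 2.27.1, SEACR 1.3 and hg38 were used, with no roles stated. The caller's threshold and the merging rule are not given in the sources used here. The authors deposited a whole-number score per region without a unit, and another column that numbers the pieces of split regions; the 17 rows numbered above 1 were left out, none near an end. Depth is unknown.

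Genes came from RefSeq GRCh38.p14, with 56080 kept and 676 left out because their positions count from scaffolds or patches. The table has no exons, so no exon or intron is named. Genes counted as overlapping from 1 shared bp on. A gene was near an end by the same rule as a region, so genes past the outermost region of an end were counted too. Unsequenced bases at the tips were not removed. Shares carry Wilson 95% intervals, and a count of 0 the share that 3 counts make. For the intervals of covered shares in the alternatives, covered length was expressed in mean region lengths. Promoters lack chromosome 8. Python 3.11.15, numpy 2.4.6, scipy 1.17.1, pandas 2.3.3 and matplotlib 3.10.9 were used. The overlap arithmetic was tested on simulated data against counting single positions, and 0 of 200 checks differed.

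The members and gene lists were chosen with earlier results of these data known. Named genes were the 4 most covered of each list (all, in lists of at most 10), the 5 other genes with the largest covered share, the 5 with the most covered bases, TERT, and further zinc finger genes by cluster and CSMD1, which were chosen after their values were seen. Alternatives were a distance of 2 Mb, a minimum length of 2 kb, joining within 5 kb, scores at or above the median, at most 20 score units per bp, no chromosome 19, ends set by genes, 10% of the body covered and all annotated genes. Leaving out chromosome 4 or zinc finger regions, and both other settings of the ends, were added after the data were seen.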

Additional observations from a re-analysis of the deposited data

How the results depend on the processing

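For 8 results, 69 values were computed under alternatives, and 54 stayed inside the 95% interval of the reported value or, for the number of regions, within 1.5 times it. Limiting the distance to 2 Mb left, by construction, 455 regions and gave a covered share of 3.47%, a ratio to the rest of 2.08, a ratio of q to p ends of 2.27 and 47.7% of region bases in protein-coding genes. Leaving out scores below the median of all regions gave 525 regions, 1.90% covered, a median length of 5143 bp and 7.49% of protein-coding genes overlapping. Requiring 10% of the gene body gave 4.60% of protein-coding genes. Counting all annotated genes gave 7.52% of genes overlapping and 55.5% of region bases in genes. Without chromosome 4 the covered share was 2.40% and the ratio to the rest 1.43, and without regions on zinc finger genes that ratio was 1.36. The cause of these changes was not tested. The ratios to the rest and of q to p ends stayed above 1 in every alternative run. None of these counted the p end windows without a region. No paired analysis was possible because the list pools the replicates of 1 group, and for the same reason no replicate could be left out. Depth is unknown, so it could not be said how far it limits the calls.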
